A study of Mus musculus with 8 samples.

Results

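The genes described here are 9 checkpoint molecules of T cells, *Pdcd1*, *Ctla4*, *Havcr2*, *Lag3*, *Tigit*, *Cd96*, *Btla*, *Cd160* and *Cd200*, taken by their symbols from a table of 55335 genes. All 9 were among the 15378 genes with enough counts to be tested. RNA was sequenced from CD8+ T cells that had infiltrated tumors (TILs) of MC38, a mouse colon carcinoma line implanted into C57BL/6 mice. Every mouse carried floxed *Lsd1* alleles (Lsd1f/f, written WT for the 4 control samples), and the 4 KO samples came from Cd4-Cre+Lsd1f/f mice, so the presence of Cre and the loss of LSD1 cannot be told apart. Cd4-Cre is active in developing thymocytes, and deletion therefore also reaches CD4+ T cells of the same mice. No drug was given according to the labels, the ages of the mice are not in them, and the harvest is stated as day 18 in the sample protocol and as 14 days in the design text. Each WT sample pooled cells of 2 mice and each KO sample held cells of 1 mouse, and the number of mice in a sample and the genotype cannot be told apart.

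Between 10000 and 20000 live cells positive for CD45.2, TCRβ, CD8, CD44 and PD-1 protein were sorted per sample. The gate required PD-1, the product of *Pdcd1*, so cells without it were removed from both genotypes. Libraries were made from RNA depleted of ribosomal RNA with a directional kit and held between 11657807 (S4) and 30295406 (S8) counts in genes. In the text S1 to S4 are the WT samples and S5 to S8 the KO samples. The 9 genes took 0.14 to 0.187% of the counts in WT and 0.139 to 0.228% in KO samples. *Kdm1a*, the gene of LSD1, was at 44.9 ± 1.87 CPM (gene counts scaled to the library total, mean ± SD, n = 4) in WT and at 30.7 ± 4.03 CPM in KO samples, and every KO sample lay below every WT sample (log2 fold change -0.55, SE 0.14, adjusted p = 0.0163 in edgeR's quasi-likelihood test). Counts over the whole gene also hold transcripts that lack the floxed part, so this level does not measure how completely the gene was deleted.

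Checkpoint molecules are surface proteins that dampen a T cell's response to antigen. Most bear short tyrosine motifs in their tails that recruit phosphatases, or compete with a stimulating receptor for the same ligand, and CD8+ T cells that meet antigen for a long time in a tumor carry several of them together. Antibodies that block PD-1 or CTLA-4 release such cells and are used in cancer treatment. CD200 differs from the rest in that it is mainly a ligand, which acts on the CD200 receptor of other cells.

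*Havcr2* and *Ctla4* rose in KO cells, by 2.11-fold and 1.73-fold, and no gene of the 9 was called lower. A gene was called at a fold change above 1.5 with a Benjamini-Hochberg adjusted p under 0.01 over all tested genes in edgeR's quasi-likelihood test. That rule called 2.91% of all tested genes higher and 1.99% lower, or 4.9% in either direction. Of the other 7 genes, *Cd160* had the lowest fold change and *Pdcd1* was the only other one with a value below 0. At an unadjusted p under 0.05, 5 of the 9 were higher and 1, *Cd160*, was lower. The share of all tested genes at that unadjusted p was not computed, here or for the lists below. DESeq2 and edgeR's likelihood ratio test each called the same number higher, 2, and each called 1 lower, which was *Cd160*. Over all tested genes DESeq2 called 617 higher and 461 lower, and the likelihood ratio test 617 and 481. At a looser adjusted p of 0.05 with the same fold threshold, which 8.1% of all tested genes passed in either direction, *Btla* joined the 2 genes called higher and *Cd160* was called lower. The median log2 fold change of the 9 genes was 0.52, beside -0.01 for all tested genes. In bulk RNA, fewer cells that express a gene and less RNA per cell cannot be told apart.

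**Figure D1:**
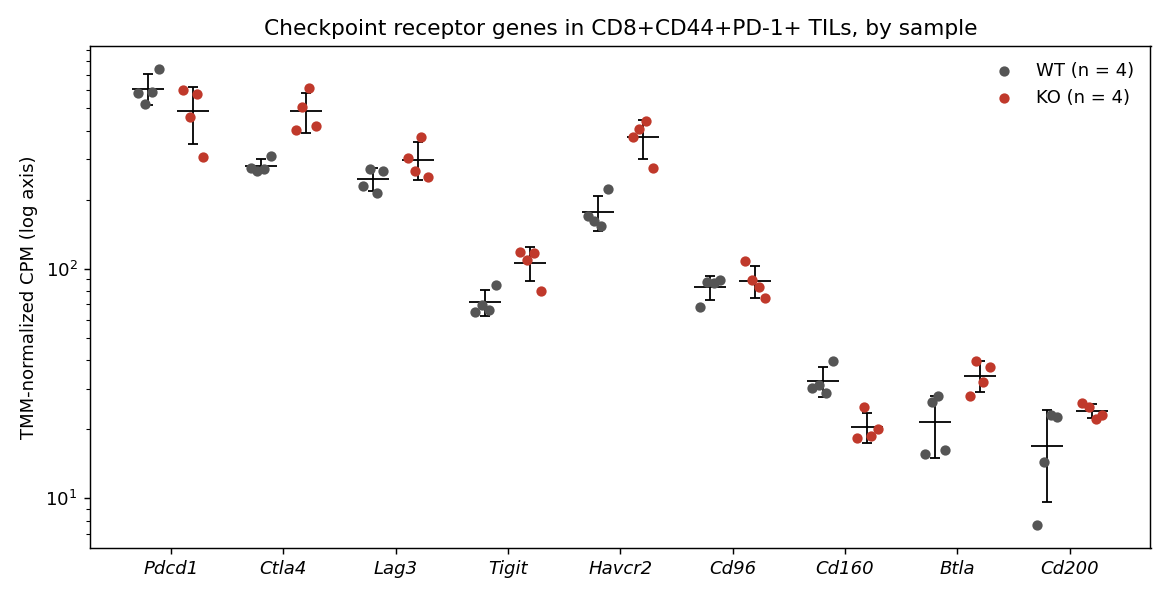
Level of each of the 9 genes in CPM for the 4 WT and 4 KO samples (points) with the group mean (line). WT and KO points do not overlap for *Havcr2* and *Ctla4*, which were higher in KO samples, and for *Cd160*, which was lower.

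*Pdcd1*, on the minus strand of chromosome 1 (GRCm38 chr1:94038305-94052553), encodes PD-1, the receptor of PD-L1 and PD-L2. Its level was 583, 524, 587 and 743 CPM in WT samples S1 to S4 and 602, 459, 575 and 306 CPM in KO samples S5 to S8. S4 stood highest and S8 lowest, 2 of the 4 KO samples lay below the lowest WT sample, and the groups overlapped. The means were 610 ± 93.8 CPM in WT and 486 ± 135 CPM in KO samples (SD, n = 4 each). The log2 fold change was -0.33 with a 95% interval from -0.68 to 0.02, and it did not pass the test (adjusted p = 0.239, edgeR's quasi-likelihood test). An exact two-sided permutation test over the 70 arrangements of the samples gave p = 0.229, where the smallest p possible is 0.0286. Leaving out each sample in turn kept the value below 0, between -0.45 without S5 and -0.16 without S8.

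*Havcr2*, on chromosome 11 (GRCm38 chr11:46454935-46481255, plus strand), encodes TIM-3, which marks T cells late in exhaustion and binds galectin-9 and CEACAM1. The WT samples held 170, 162, 153 and 222 CPM and the KO samples 374, 407, 439 and 274 CPM. Every KO sample lay above every WT sample, with S4 the highest of the WT and S8 the lowest of the KO samples. The means of 177 ± 31.2 and 373 ± 71.5 CPM (SD, n = 4 each) gave a log2 fold change of 1.08 (SE 0.14, 95% interval 0.78 to 1.38, adjusted p = 8.57e-05 in edgeR's quasi-likelihood test). The exact permutation p was 0.0286, the smallest that 4 against 4 samples can give. Without each sample in turn the log2 fold change was 0.99 to 1.21.

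*Ctla4*, on chromosome 1 (GRCm38 chr1:60887000-60915832, plus strand), encodes the receptor that takes CD80 and CD86 away from the stimulating receptor CD28. It was at 275, 267, 273 and 309 CPM in WT samples and at 404, 508, 614 and 419 CPM in KO samples. The WT samples lay close together, the KO samples were spread more widely, and the groups did not overlap. The means were 281 ± 18.9 and 486 ± 96.8 CPM (SD, n = 4 each), with a log2 fold change of 0.79 (SE 0.12, 95% interval 0.53 to 1.05, adjusted p = 0.000354 in edgeR's quasi-likelihood test). The exact permutation p was again 0.0286. Omitting a sample moved the log2 fold change between 0.66 and 0.87. An annotated pseudogene on the same strand that overlaps the gene, *Rpl18-ps1*, held 0.217% as many counts.

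The calls of *Havcr2* and *Ctla4* ended under a pair of alternatives. When the test asked whether the change itself exceeded 1.5-fold (edgeR's glmTreat), their adjusted p was 0.0139 and 0.263. With the mean log2 level of myeloid genes, a score that separated the genotypes without overlap, as a covariate, their adjusted p was 0.259 and 0.44, and only 34 of all tested genes were called. The log2 fold changes with the covariate were 1.19 for *Havcr2* and 0.75 for *Ctla4*, and with glmTreat they were 1.08 and 0.79 as before.

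*Cd160*, on the minus strand of chromosome 3 (GRCm38 chr3:96798763-96829351), encodes a receptor anchored by a lipid that binds HVEM. The WT samples held 30.2, 31.3, 28.8 and 39.8 CPM and the KO samples 18.2, 24.9, 18.7 and 20.1 CPM. All 4 KO samples lay below all 4 WT samples. The means were 32.6 ± 4.97 and 20.5 ± 3.04 CPM (SD, n = 4 each), and the log2 fold change of -0.67 (SE 0.17, 95% interval -1.02 to -0.31) missed the threshold with an adjusted p of 0.0156 in edgeR's quasi-likelihood test. The exact permutation p was 0.0286. Groups of samples without overlap were found for 3 of the 9 genes, 2 higher and 1 lower, beside 8.99% of all tested genes higher and 8.28% lower. *Pdzk1*, which overlaps *Cd160* on the opposite strand, held 2.42% as many counts.

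The 250 bases before the transcription start are shown for the 2 genes that rose and for the 2 whose log2 fold change was below 0, so that the regions in front of their starts can be compared. They come from RefSeq on GRCm38.p6, in which 8 of the 9 genes were matched with 9 windows, and each is printed 5′ to 3′ on the strand of the gene. Capitals mark the letters of 4 motifs searched on both strands, CTTTGA for TCF/LEF factors, GGAAAA for NFAT, TGANTCA for AP-1 and TGTGGT for RUNX factors. The windows are chr1:60908775-60909024 (plus strand) for *Ctla4*, chr11:46454681-46454930 (plus) for *Havcr2*, chr1:94052554-94052803 (minus) for *Pdcd1* and chr3:96829352-96829601 (minus) for the outer start of *Cd160*. The RefSeq start of *Ctla4* lies inside the longer gene span that GENCODE gives.
Ctla4: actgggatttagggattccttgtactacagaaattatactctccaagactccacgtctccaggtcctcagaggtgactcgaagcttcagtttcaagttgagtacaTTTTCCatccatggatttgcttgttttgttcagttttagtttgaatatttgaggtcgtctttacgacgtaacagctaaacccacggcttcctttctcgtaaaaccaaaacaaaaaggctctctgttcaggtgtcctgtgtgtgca
Havcr2: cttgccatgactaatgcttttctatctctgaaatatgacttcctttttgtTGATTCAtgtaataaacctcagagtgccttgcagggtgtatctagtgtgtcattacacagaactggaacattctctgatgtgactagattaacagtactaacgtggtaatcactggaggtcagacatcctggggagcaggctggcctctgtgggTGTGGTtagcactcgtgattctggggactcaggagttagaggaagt
Pdcd1: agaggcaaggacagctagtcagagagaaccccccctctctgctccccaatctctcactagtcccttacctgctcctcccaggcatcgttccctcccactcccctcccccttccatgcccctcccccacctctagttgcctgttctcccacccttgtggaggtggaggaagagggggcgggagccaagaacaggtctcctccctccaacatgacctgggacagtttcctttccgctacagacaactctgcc
Cd160: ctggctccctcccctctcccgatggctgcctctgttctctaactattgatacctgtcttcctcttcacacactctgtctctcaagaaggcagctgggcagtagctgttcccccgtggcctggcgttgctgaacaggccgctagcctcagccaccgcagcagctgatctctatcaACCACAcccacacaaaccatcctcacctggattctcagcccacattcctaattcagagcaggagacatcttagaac

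The *Ctla4* window held the reverse complement of the NFAT letters 145 bases before the start. The *Havcr2* window held the AP-1 letters 200 bases before the start, which read alike on both strands, and the RUNX letters 46 bases before it. The *Cd160* window held the reverse complement of the RUNX letters 76 bases before the start, and the *Pdcd1* window held none of the 4. Over the 9 windows of 8 genes, 1 held the TCF/LEF letters, 2 the NFAT, 1 the AP-1 and 6 the RUNX letters. The window with the TCF/LEF letters was that of the inner start of *Cd160* (chr3:96814522-96814771, minus strand), which is not printed. It held them on both strands, 232 and 92 bases before that start. Among 32851 windows of the same length over all genes the shares were 13.8%, 20.4%, 6.75% and 14% in that order. The RUNX letters were found in front of *Havcr2*, *Tigit*, *Btla*, *Cd96* and both starts of *Cd160*, genes with fold changes on either side of 0. A match is a run of letters and not a measured binding site, and no occupancy was measured in these samples.

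*Tigit*, on the minus strand of chromosome 16 (GRCm38 chr16:43648867-43664146), encodes a receptor for CD155. It was at 64.9, 69.3, 66.3 and 85.1 CPM in WT and at 118, 109, 118 and 80.3 CPM in KO samples. S8 fell among the WT samples, below S4, and the other 3 KO samples lay above all WT samples. The log2 fold change of 0.57 (SE 0.13, 1.49-fold, 95% interval 0.29 to 0.86) missed both the fold threshold and the adjusted p threshold (adjusted p = 0.0102, edgeR's quasi-likelihood test). The exact permutation p was 0.0571. Without S4 the log2 fold change was 0.67 and without S8 it was 0.69, and *Tigit* passed both thresholds in each of these fits.

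*Cd96* (GRCm38 chr16:46035657-46120251, minus strand) encodes a receptor that shares the ligand CD155 with TIGIT. It was at 68, 88, 87 and 89 CPM in WT and at 108, 89.2, 83.4 and 74.2 CPM in KO samples. S1 stood apart as the lowest sample, and the KO samples reached both above and into the WT range. The log2 fold change was 0.10 with a 95% interval from -0.18 to 0.37 (adjusted p = 0.725, edgeR's quasi-likelihood test), and it became 0.01 without S1 and -0.01 without S5.

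*Btla* (GRCm38 chr16:45224315-45257670, plus strand) encodes the other receptor of HVEM on T cells. Its WT levels were 15.6, 26.3, 28 and 16.2 CPM and its KO levels 28, 39.8, 32.1 and 37.2 CPM. S1 and S4 were low, S5 was level with S3, and 3 of the 4 KO samples lay above all WT samples. The log2 fold change was 0.67 (SE 0.21, 95% interval 0.24 to 1.11), which did not pass at the threshold of 0.01 (adjusted p = 0.0433 in edgeR's quasi-likelihood test), with an exact permutation p of 0.0571.

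*Lag3* (GRCm38 chr6:124904361-124911705, minus strand) encodes a relative of CD4 that binds MHC class II. It was at 229, 272, 215 and 267 CPM in WT and at 303, 265, 377 and 252 CPM in KO samples. S6 and S8 lay within the WT range and S5 and S7 above it. Its log2 fold change was 0.28 (SE 0.13, 95% interval 0.02 to 0.55, adjusted p = 0.171 in edgeR's quasi-likelihood test) and the exact permutation p was 0.171. Without S7 the value was 0.15.

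*Cd200* (GRCm38 chr16:45382135-45409053, minus strand) had the lowest level of the 9 genes in WT samples, at 7.67, 14.4, 23.2 and 22.5 CPM in WT and 26.1, 25, 22.3 and 23.1 CPM in KO samples. The WT samples split into S1 and S2 below and S3 and S4 level with the KO samples, which lay within a narrow range. A log2 fold change of 0.52 (SE 0.26, 95% interval -0.04 to 1.07) did not pass (adjusted p = 0.247, edgeR's quasi-likelihood test), and the value was 0.27 without S1. Its count of 132 in S1 was the lowest single count among the 9 genes, with a 95% Poisson interval of 110 to 157 that covers counting error only, and the highest was 11924 for *Ctla4* in S8.

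**Figure D2:**
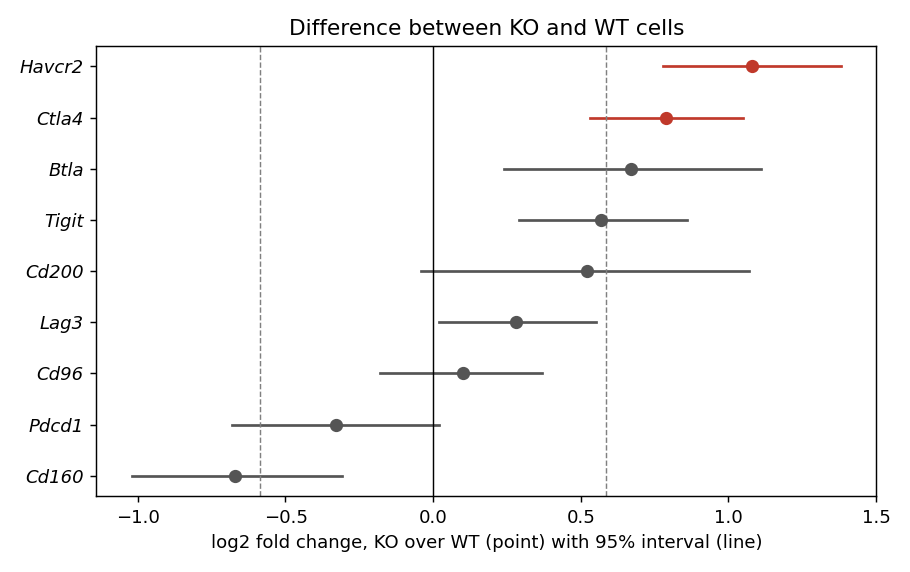
Log2 fold change of KO over WT samples for the 9 genes (points) with 95% intervals (lines), from edgeR's fit over all tested genes. Dashed lines mark a 1.5-fold change in each direction, and red marks the 2 genes called higher, *Havcr2* at 1.08 and *Ctla4* at 0.79.

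Levels between genes were compared per length, as RPKM, the CPM value divided by the exon length of the gene in kilobases. In WT samples *Pdcd1* was the highest at 316 ± 48.6 RPKM (SD, n = 4), followed by *Ctla4* at 120 ± 8.11 and *Lag3* at 116 ± 13.4 RPKM. *Tigit* at 77.7 ± 10.2 and *Havcr2* at 65 ± 11.5 RPKM came next. The lower end held *Cd96* at 38 ± 4.59, *Cd160* at 12.3 ± 1.88, *Btla* at 6.33 ± 1.92 and *Cd200* at 5.1 ± 2.21 RPKM. Neighbours in this order overlapped in their ranges over samples between *Ctla4* and *Lag3*, between *Tigit* and *Havcr2*, although *Tigit* was the higher in each of the 4 samples, and between *Btla* and *Cd200*.

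In KO samples *Pdcd1* still had the highest mean, 252 ± 69.9 RPKM, and *Ctla4* followed at 209 ± 41.5 RPKM (SD, n = 4 each). *Lag3* was at 142 ± 26.6, *Havcr2* at 137 ± 26.3 and *Tigit* at 115 ± 19.3 RPKM. The ranges of neighbours overlapped from *Pdcd1* down to *Tigit*, so that the 5 levels stood closer together than in WT samples, and *Pdcd1* was above *Ctla4* in 3 of the 4 samples and below it in S8. *Cd96* at 40.6 ± 6.54, *Btla* at 10.1 ± 1.56, *Cd160* at 7.76 ± 1.15 and *Cd200* at 7.27 ± 0.524 RPKM were again lowest. *Cd160* was above *Btla* in all 4 WT samples and below it in all 4 KO samples.

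The make-up of the checkpoint transcripts therefore differed between genotypes in these shares of the summed RPKM of the 9 genes. *Pdcd1* made up 42.5, 38, 42.4 and 43.5% of the sum in WT and 32.2, 25.9, 27.3 and 22.5% in KO samples. *Havcr2* made up 8.78, 8.32, 7.84 and 9.23% in WT and 14.2, 16.3, 14.8 and 14.3% in KO samples. The share of *Pdcd1* was lower, and that of *Havcr2* higher, in every KO sample than in any WT sample. The share of *Ctla4* ranged from 15 to 16.6% over the WT samples and from 17.9 to 25.5% over the KO samples, that of *Tigit* was 9.93 to 10.6% and 11.7 to 13.3%, and that of *Cd160* was 1.52 to 1.7% and 0.649 to 1.08%. These 3 shares did not overlap between the genotypes either, and shares of a fixed sum are not independent of each other. The sum itself was 711, 714, 718 and 886 RPKM in WT and 968, 919, 1091 and 705 RPKM in KO samples, with S8 below all WT samples.

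**Figure D3:**
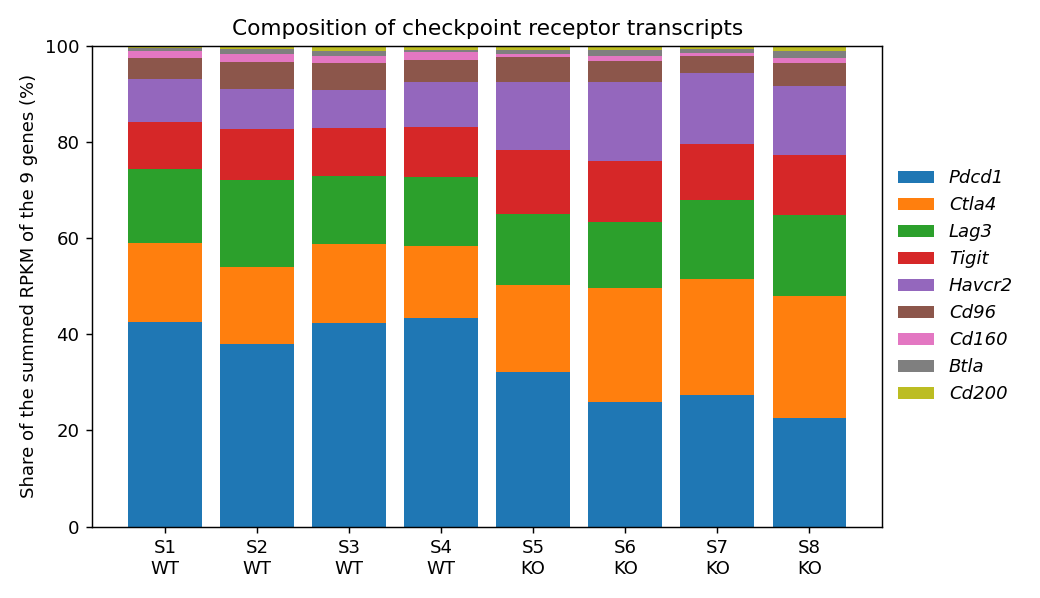
Share of each gene in the summed RPKM of the 9 genes, in percent, for each of the 8 samples as a stacked bar. The *Pdcd1* share is 38 to 43.5% in the WT bars and 22.5 to 32.2% in the KO bars, and the *Havcr2* and *Ctla4* shares are larger in the KO bars.

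The level of each gene relative to *Pdcd1* in the same sample, a ratio of RPKM values, set the genotypes further apart than the levels alone for some genes. The ratio of *Havcr2* was 0.207, 0.219, 0.185 and 0.212 in WT and 0.441, 0.629, 0.541 and 0.634 in KO samples. That of *Ctla4* was 0.39, 0.421, 0.385 and 0.344 in WT and 0.556, 0.917, 0.884 and 1.14 in KO samples. The ratio of *Tigit* ranged from 0.234 to 0.278 over the WT samples and from 0.411 to 0.551 over the KO samples. For these 3 genes every KO sample lay above every WT sample. In S8 the divisor was low, with *Pdcd1* at 159 RPKM against 238 to 312 RPKM in the other KO samples. *Tigit* itself was at 87.4 RPKM in S8, below S4 at 92.6 RPKM. The share of all tested genes whose ratio to *Pdcd1* separated the genotypes was not computed. The geometric mean ratio was 2.7-fold higher in KO samples for *Havcr2*, 2.2-fold for *Ctla4* and 1.9-fold for *Tigit*, each with an exact permutation p of 0.0286 before adjustment over the 8 ratios computed.

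The ratios of *Lag3* and *Cd200* to *Pdcd1* were 1.56-fold and 2-fold higher on the geometric mean (exact permutation p = 0.0571 each), and those of *Btla* and *Cd96* 2.11-fold and 1.37-fold higher (exact permutation p = 0.0857 each). Samples of the genotypes overlapped for all 4. *Cd160* was the only gene whose ratio had a lower mean in KO samples, by a geometric factor of 0.81, with overlapping samples (exact permutation p = 0.4).

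**Figure D4:**
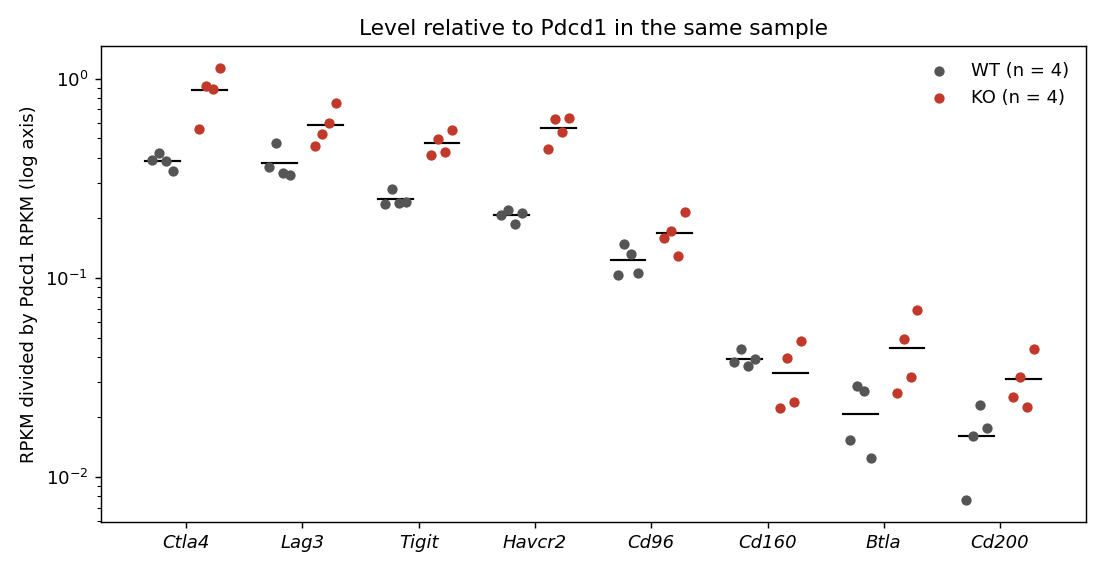
RPKM of each of the other 8 genes divided by the RPKM of *Pdcd1* in the same sample, on a log axis, for 4 WT and 4 KO samples (points) with the group mean (line). The points of *Ctla4*, *Tigit* and *Havcr2* do not overlap between genotypes, and those of the other 5 genes do.

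The 9 genes also varied among samples of 1 genotype. S4 was the highest WT sample for 6 of them, and S8 the lowest KO sample for 5. After each genotype was centred on its mean, *Tigit* varied with *Pdcd1* (Pearson's r = 0.94) and with *Havcr2* (r = 0.92), and *Pdcd1* with *Havcr2* (r = 0.84), over 8 samples that share their libraries. *Btla* ran the other way, with r = -0.52 to *Pdcd1* and r = -0.49 to *Havcr2*. Of the 36 pairs 28 had an r above 0, with a median of 0.3. The same was not computed for pairs of other genes, so it is not known whether these values are particular to checkpoint genes. S8 was also the deepest library. Among KO samples it had the highest levels of *Tcf7*, the gene of TCF1, at 84.7 CPM, of *Eomes* at 52.5 CPM and of *Id3* at 30.4 CPM. These are regulators found in less differentiated or memory T cells. S6 was close to S8 in *Tcf7*, at 80.5 CPM. Every KO sample had less *Tcf7* than any WT sample (43.3 to 84.7 against 86.1 to 124 CPM). Its log2 fold change was -0.54 and it was not called (adjusted p = 0.0633 in edgeR's quasi-likelihood test). Among the KO samples S8 also had the highest level of *Klrg1*, a marker of effector cells, at 12.6 CPM and the lowest of *Bcl6* at 38.7 CPM. These genes were picked after their values were seen, and their part in the levels of S8 was not tested.

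The genes whose variation within genotypes was most like that of a checkpoint gene were sought among 10941 genes with a mean log2 CPM above 2, over the same 8 centred samples and as a description alone. For *Pdcd1* they were *mt-Nd5* (r = 0.975) and *Rbpj* (0.974), for *Havcr2* *Usp31* (0.98) and *Ybx3* (0.975), for *Ctla4* *Trbv5* (0.97) and *Golt1b* (0.97), and for *Lag3* *Cenpf* (0.952). For *Tigit* they were *Gm24616* (0.96) and *E430018J23Rik* (0.954), for *Cd160* *Gm43237* (0.993) and *Slc19a1* (0.986), and for *Btla* *Dcaf17* (0.977) and *Mien1* (0.971). For *Cd96* they were *Gm16589* (0.973) and *Atpif1* (0.955), and for *Cd200* *Cers2* (0.982) and *Osgep* (0.97). None of these genes was another checkpoint gene of the 9, and each value is among the 2 highest of 10941 correlations over 8 samples.

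Ligands and partners of the 9 receptors can also be made by T cells. Of 16 such genes on the list, 13 were tested, and 4 rose while none was called lower (5 were higher and 2 lower at an unadjusted p under 0.05, and DESeq2 and edgeR's likelihood ratio test also called 4 and 0). The median log2 fold change was 0.30. Beside this list and those that follow, the same rule called 2.91% of all tested genes higher and 1.99% lower. *Cd86*, a ligand of CTLA-4 and CD28, was at 20.5 to 26.9 CPM in WT and 45.8 to 66.2 CPM in KO samples (log2 fold change 1.18). *Lgals3*, which encodes galectin-3, a ligand of LAG-3, was at 58.5 to 73.2 and 132 to 146 CPM (1.03). *Pvr*, the gene of CD155, was at 31.9 to 56.7 and 78.2 to 109 CPM (0.95), and *Cd274*, the gene of PD-L1, at 85.6 to 110 and 129 to 184 CPM (0.69). None of the 4 overlapped between genotypes, beside 8.99% of all tested genes that were higher without overlap. Their adjusted p ran from 5.23e-06 to 0.00122 in edgeR's quasi-likelihood test.

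At the other end of this list, *Cd226*, the stimulating receptor that competes with TIGIT for CD155, had a log2 fold change of -0.34 with no overlap between genotypes (157 ± 13.7 CPM in WT and 124 ± 10.4 CPM in KO samples, SD, n = 4 each) but was not called (adjusted p = 0.0398, edgeR's quasi-likelihood test). *Hmgb1*, which encodes a ligand of TIM-3, had a log2 fold change of -0.27 (adjusted p = 0.194 in the same test). *Nectin2*, *Nectin3* and *Fgl1* were too low to be tested, and *Fgl1* had no count in any sample, which allows at most 0.106 to 0.25 CPM.

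Inside the cell, PD-1, BTLA and their relatives act through phosphatases and adaptors. Of 16 signalling genes, all tested, 1 rose and 1 fell (4 were higher and 3 lower at an unadjusted p under 0.05), with a median log2 fold change of -0.03. *Trat1*, the gene of a T cell receptor adaptor that also stabilises CTLA-4 at the cell surface, rose from 3.71 ± 0.296 to 26.4 ± 6.03 CPM (log2 fold change 2.83, adjusted p = 4.06e-07 in edgeR's quasi-likelihood test). *Ptpn6*, the gene of the phosphatase SHP-1, fell from 261 ± 24.1 to 170 ± 37.6 CPM (log2 fold change -0.62, adjusted p = 0.0054). *Dok2* at 0.40 and *Csk* at -0.47 were the next in each direction and were not called.

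Among 15 other inhibitory receptors, 14 were tested, 2 rose and 2 fell, with a median log2 fold change of -0.05. DESeq2 and edgeR's likelihood ratio test each called 2 higher and 4 lower, and at an unadjusted p under 0.05 there were 4 higher and 5 lower. *Cd101* rose from 35.4 ± 1.77 to 189 ± 10.3 CPM (log2 fold change 2.42) and *Pecam1*, the gene of CD31, from 22.9 ± 3.06 to 63.7 ± 9.18 CPM (1.48). *Lilrb4a* fell from 135 ± 27.6 to 19.7 ± 4.57 CPM (-2.78) and *Cd244a*, the gene of 2B4, from 25.2 ± 7.36 to 9.09 ± 4.54 CPM (-1.48). No sample of any of the 4 overlapped between genotypes, beside 8.99% of all tested genes higher and 8.28% lower without overlap. Both genes that fell are also expressed by myeloid cells, whose genes were lower in KO samples, as described with the cell type genes, and the part of those cells in the 2 results was not tested.

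Of 22 regulators of T cell exhaustion and differentiation, 2 rose and 1 fell (8 were higher and 5 lower at an unadjusted p under 0.05, and DESeq2 and edgeR's likelihood ratio test each called 3 and 1), with a median log2 fold change of 0.07. *Irf4* rose from 189 ± 26.4 to 389 ± 42.7 CPM (log2 fold change 1.04) and *Bcl6*, a repressor, from 22.9 ± 5.05 to 40.5 ± 1.87 CPM (0.82). *Tox*, which encodes a factor required for exhausted T cells to persist, fell from 96.7 ± 17.6 to 43 ± 4.62 CPM (-1.17). *Tox2* was at 0.523, 0, 0 and 0.99 CPM in WT and 4.6, 4.53, 6.26 and 3.83 CPM in KO samples and missed the threshold (adjusted p = 0.0107, edgeR's quasi-likelihood test). *Eomes* had a log2 fold change of -0.86 with overlapping samples (adjusted p = 0.0477 in the same test).

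**Figure D5:**
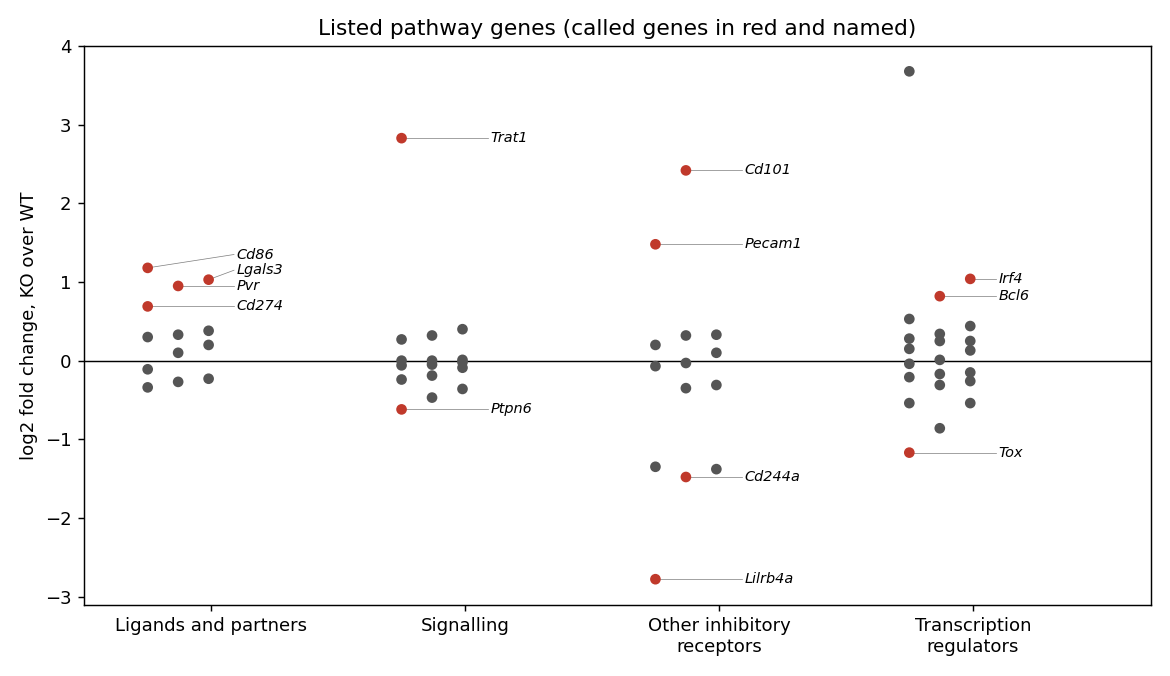
Log2 fold change of KO over WT samples for every tested gene of 4 lists, ligands and partners, signalling genes, other inhibitory receptors and regulators, with called genes in red. Of the called genes 9 lie above 0 and 4 below, and *Trat1* at 2.83 and *Lilrb4a* at -2.78 are the farthest called genes in each direction.

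The labelled cell type was checked against its markers. All 10 genes of the CD8+ T cell list were well expressed, with *Cd8a* at 1205 to 1411 CPM in WT and 1012 to 1227 CPM in KO samples and a median log2 fold change of -0.22. Of the 10, *Cd44* (0.86) and *Cd2* (0.80) rose and none was called lower in edgeR's quasi-likelihood test (5 were lower at an unadjusted p under 0.05, and DESeq2 and the likelihood ratio test also called 0 lower). The summed level of 17 myeloid markers ranged from 517 to 1586 CPM over the WT samples and from 296 to 406 CPM over the KO samples, and 10 of the 16 tested were called lower, with a median log2 fold change of -2.46. Their mean log2 level, used as a score, was 4.55, 4.77, 5.95 and 5.02 in WT and 3.25, 3.32, 2.72 and 2.4 in KO samples. S3 had the highest myeloid score. Of the WT samples it also had the lowest *Havcr2*, *Lag3* and *Cd160* levels and the highest *Btla* and *Cd200* levels. The part of myeloid cells in these levels was not tested.

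After each genotype was centred, Pearson's r between the myeloid score and a checkpoint gene over 8 samples was highest for *Cd200* (0.68) and *Cd96* (0.64), and it was 0.36 for *Pdcd1*, 0.12 for *Havcr2* and -0.03 for *Ctla4*. With the score as a covariate the log2 fold change of *Pdcd1* became 0.13 (adjusted p = 0.956 in edgeR's quasi-likelihood test). TIM-3 is also made by macrophages and dendritic cells, and the part of such cells in the level of *Havcr2* was not tested.

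CTLA-4 is made in large amounts by CD4+ regulatory T cells. The 5 genes of the CD4+ T cell list summed to 343 to 427 CPM in WT and 371 to 478 CPM in KO samples. Most of that sum was *Ikzf2*, at 303 to 370 CPM in WT and 216 to 353 CPM in KO samples (log2 fold change -0.26, not called). *Ikzf2* is also on the list of regulators. *Zbtb7b*, the gene of the CD4 lineage factor ThPOK (log2 fold change 1.19), and *Cd40lg* (2.42) rose. The median log2 fold change of the list was 1.19. *Cd4* was at 1.86, 6.87, 4.41 and 5.03 CPM in WT and at 15.2, 26.2, 7.26 and 8.55 CPM in KO samples (adjusted p = 0.0161, edgeR's quasi-likelihood test, not called), and *Foxp3*, the defining gene of regulatory T cells, was at 0.408 to 2.48 and 1.33 to 4.07 CPM. S7 had the highest *Ctla4* level and the lowest *Cd4* level of the KO samples. S6 had the highest *Cd4* level, and its *Ctla4* level of 508 CPM was next below that of S7. *Cd4* lies 16140 bases from *Lag3* on chromosome 6, with no tested gene between them. The part of CD4+ cells in the level of *Ctla4* was not tested.

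Genes of other cell types were low. The 5 B cell genes summed to at most 5.71 CPM and the 6 fibroblast and endothelial genes to at most 2.73 CPM. The 4 NK cell genes summed to 28.9 to 53.9 CPM. Most of that sum was *Klre1*, with means of 48.7 CPM in WT and 38.3 CPM in KO samples. The 5 epithelial genes summed to 13.5 to 32.7 CPM, with *Krt8* at 0 in all samples. Most of that sum was *Cdh1*, with means of 19.5 CPM in WT and 24.7 CPM in KO samples. None of the tested genes of these 4 lists was called in edgeR's quasi-likelihood test, while 2 were higher and 1 was lower at an unadjusted p under 0.05 and DESeq2 and the likelihood ratio test each called 1 higher.

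The 9 genes lie on 5 chromosomes, and *Tigit*, *Btla*, *Cd200* and *Cd96* lie within 2.47 Mb of chromosome 16 (GRCm38 chr16:43648867-46120251). *Btla* is the nearest tested gene to *Cd200*, 124465 bases away, and *Gm6030* the nearest to *Btla*. The interval holds 19 other tested genes, and none of them was called by edgeR's quasi-likelihood test, DESeq2 or the likelihood ratio test (2 had an unadjusted p under 0.05). Their median log2 fold change was -0.09. *Icos*, the gene of a stimulating receptor 62095 bases beyond *Ctla4* on chromosome 1, also rose, from 254 to 459 CPM (log2 fold change 0.86, adjusted p = 4.97e-05 in edgeR's quasi-likelihood test). *Icos* was the only nearest tested neighbour of any of the 9 genes that was called.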

How the data were processed

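RNA-seq was done on 4 WT and 4 KO samples of sorted CD8+ TILs. The authors aligned paired reads to GRCm38 with STAR, counted them per GENCODE gene with featureCounts and deposited raw counts in 1 table, without normalization. The columns are named only by sample numbers, which carry no genotype; samples 1 to 4 were taken as WT and 5 to 8 as KO from the study's supplementary material. Replicate numbers are unknown. The p-values measure the spread between these samples, each a pool of 2 mice in WT and 1 mouse in KO. Library totals were 11657807 to 30295406, and after TMM scaling 3 counts are 0.106 to 0.25 CPM. These floors and the Poisson intervals describe counting error alone, because copies made by PCR are not separate molecules.

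Counts were tested with edgeR 4.0.16 in R 4.3.3 (filterByExpr, TMM factors, glmQLFit, glmQLFTest, no covariate), with calls at more than 1.5-fold and p under 0.01 after Benjamini-Hochberg adjustment over 15378 genes. The authors' own test, DESeq2 after a GC content correction, was an alternative in 2 separate fits. Single genes and ratios were compared by exact two-sided permutation tests on log2 values (prior count 2 for CPM). RPKM used TMM-scaled totals and exon lengths of GENCODE M21, which matched 55154 of 55335 gene IDs. The authors used a later release on the same build. In 3 simulated sets, genes at 10 CPM or more changed 2-fold and 4-fold were called in 74.4% and 99.4% of cases, and lower genes in 1.61% and 28.1%, with 0 to 4 false calls.

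The genes and lists were chosen with earlier results of these data known, and the ratios, shares and motifs after seeing the values. The genes named are all 9 checkpoint genes, *Kdm1a*, called genes of each list with the 2 highest and 2 lowest log2 fold changes (for cell type lists, the most abundant gene), nearest tested neighbours and, for each of the 9, the 2 genes with the most similar variation, of which 1 is not reported here. *Cd4*, *Foxp3*, *Tcf7*, *Id3*, *Klrg1*, *Bcl6* in S8, *Eomes* in S8, *Krt8*, *Fgl1*, *Nectin2*, *Nectin3*, *Rpl18-ps1* and *Pdzk1* were added after their values were seen. Alternatives were other scaling, filters, thresholds, tools, GC content offsets (mgcv 1.9.3), coding genes alone, a myeloid covariate, gene length and leaving out each sample.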

Additional observations from a re-analysis of the deposited data

Results flagged for a closer look

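In the 4 WT samples *Cd96* was at 68 CPM in S1 against 87 to 89 CPM in the others, a gap of 0.915 of the group's whole range on the log2 scale. It was the only sample found to stand apart in the 18 groups examined (9 genes in 2 genotypes), where chance gives about 1 in 20.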

How the results depend on the processing

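No paired analysis was possible because the columns carry no replicate numbers. Of the 9 checkpoint genes 2 were called higher, *Havcr2* and *Ctla4*, and 0 with glmTreat or with the myeloid score as a covariate, a score that nearly follows genotype. The count called lower was 0, and 1, *Cd160*, at an adjusted p of 0.05, without the low-count filter, with DESeq2 and with the likelihood ratio test. Over all genes, 447 higher and 306 lower became 695 and 551 at an adjusted p of 0.05, 165 and 130 with glmTreat and 31 and 3 with the covariate; 531 were lower without the filter, 461 with DESeq2 and 481 with the likelihood ratio test. Of the genes of the 4 pathway lists, 9 higher and 4 lower became 1 and 1 with the covariate, and 7 were lower at an adjusted p of 0.05 or without the filter and 2 with glmTreat. Leaving out 1 sample gave 347 to 452 genes higher and 199 to 303 lower, lowest without S2, and 2 to 6 listed genes lower, with 2 without S3 or S7 and 6 without S5. The log2 fold change of *Pdcd1* became 0.13 with the covariate and that of *Cd96* -0.01 without S5. *Tigit* was called with T cell gene scaling (0.59) and GC content offsets (0.65), and *Btla* at an adjusted p of 0.05 or without the filter. With the longest transcript as length, *Cd200* ranked above *Btla* in WT and above *Cd160* in KO samples, and without S8 *Havcr2* ranked above *Lag3* in KO samples. The cause was not tested. Scaling alternatives moved the median of all genes to between -0.037 and 0.011 on the log2 scale. Permutation tests were not repeated without a sample, since 4 against 3 samples cannot reach a p under 0.05. Changes of 2-fold in genes under 10 CPM, as *Cd4*, *Foxp3* and *Tox2* are in WT samples, were rarely recovered at this depth.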
